A study of Mus musculus with 6 samples.

Results

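The genes described here are the fibroblast growth factor (FGF) ligand genes Fgf2, Fgf7, Fgf8, Fgf9, Fgf10 and Fgf18, the receptor genes Fgfr1, Fgfr2 and Fgfr3, and the receptor relative Fgfrl1. They were taken as every probe whose gene name in the scanner files was 1 of these 10 symbols, which gave 19 of 41174 probes, or 10 of 19504 named genes. The study compared Tgfbr2Prx1KO mutant embryos with littermates labelled as controls and wild type, all on the C57BL/6 background at E14.5. The mutant name stands, by convention, for deletion of Tgfbr2, a TGF-beta receptor gene, by a Cre under the Prx1 enhancer, which is active in limb mesenchyme and leaves the limb ectoderm with its receptor. The interzone (where a joint will form), growth plate chondrocytes and interdigital tissue were cut by laser from frozen autopods of 2 mutant and 2 control embryos. There were 6 arrays, 1 for each tissue and genotype, so a difference between a mutant array and its control array has no replicate check. The captured RNA was amplified by PCR before labelling, per the labels, and how the embryos were divided among the arrays is not given.

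FGFs are secreted signals that bind receptor tyrosine kinases together with heparan sulfate and act through the Ras and MAP kinase cascade. In the early limb, FGFs of the apical ectodermal ridge keep the distal mesenchyme growing, and Fgf10 from the mesenchyme maintains the ridge. In the skeleton, Fgf9 and Fgf18 signal to cartilage, where Fgfr3 restrains the growth of chondrocytes. Fgfr1 and Fgfr2 are known from limb mesenchyme and perichondrium, and an epithelial form of Fgfr2 receives Fgf7 and Fgf10. Fgfrl1 binds FGFs but lacks the kinase domain.

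A level is the log2 processed signal of a probe minus the 75th percentile of its array, so 0 is that percentile. By the scanner's own flag, spots well above background made up a share that lay between 72.3% on the growth plate control array and 88.3% on the interdigital control array, and no spot was saturated. The median processed signal of the growth plate control array was 103 units, against 340 to 502 units on the other 5 arrays. The growth plate and interdigital mutant arrays were on slide 2 and the other 4 arrays on slide 1, so genotype and slide cannot be told apart for growth plate and interdigital tissue. Cartilage markers did not bear out the label of the growth plate mutant array: the mean level of 11 cartilage genes was -0.17 there and 4.03 on the growth plate control array, and Col2a1, the main cartilage collagen gene, was at 5.44 and 7.98. Gdf5, which marks the interzone, was highest on the interzone control array (4.33). It stood at 2.10 on the interzone mutant array, below the 2.38 of the interdigital mutant array. Over 10 interzone and joint genes, Gdf5 included, the mean level was 1.73 on the interzone control array. On the interzone and interdigital mutant arrays this mean was -0.23 and -0.39. Of 9 such genes measured on both of these mutant arrays, 2 were at least 2-fold higher on the interzone array and 0 lower. Gdf6 was lower on the interzone mutant array, where its signal did not clear the background flag. The mean level of 10 epidermis genes lay between 3.17 and 3.74 on the mutant arrays and between -3.31 and 0.60 on the control arrays. Other cell type markers moved as well. The mean level of 6 skeletal muscle genes was 2.33, -0.23 and 0.72 on the interzone, growth plate and interdigital mutant arrays. On the control arrays it was -0.61, 2.31 and 0.69. That of 6 endothelium genes was -0.77, -0.13 and -0.66 on the mutant arrays and -2.08, -5.30 and 0.43 on the control arrays. Only 3 of these 6 were well above background on the growth plate control array. Tgfbr2 itself, at its brightest probe, had levels of 2.24, 1.20 and 1.92 on the interzone, growth plate and interdigital mutant arrays, against 2.42, -2.40 and 2.50 on the control arrays. A second Tgfbr2 probe was higher in the mutant in each tissue, at 0.88, -1.24 and 0.53 against -0.07, -2.95 and 0.47 in controls. The third and dimmest probe read -6.98 in mutant and -3.38 in control interdigital tissue. In growth plate its signal cleared the background flag in the mutant alone, and in interzone in neither genotype. No source used here says whether these probes lie in the deleted part.

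The promoters of the genes lower in all 3 mutant tissues (Fgf9, Fgf18 and Fgfrl1) and of the chondrocyte receptor gene Fgfr3 (the first of 2 listed starts) are shown first. Each run of 300 bases covers 250 bases before to 50 after the RefSeq start, 5′ to 3′ on the gene's strand, in the build GRCm38.p6. Capitals mark the Smad box CAGAC on either strand (GTCTG on the other), the core motif bound by Smads, the transcription factors downstream of Tgfbr2.
Fgf9, chr14:58072436-58072735, plus strand: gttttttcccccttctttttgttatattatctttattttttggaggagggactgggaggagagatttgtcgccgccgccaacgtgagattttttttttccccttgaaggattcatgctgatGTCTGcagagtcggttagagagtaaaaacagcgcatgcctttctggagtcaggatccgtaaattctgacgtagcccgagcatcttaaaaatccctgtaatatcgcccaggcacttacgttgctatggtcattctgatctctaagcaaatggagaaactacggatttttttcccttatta
Fgf18, chr11:33147351-33147650, minus strand: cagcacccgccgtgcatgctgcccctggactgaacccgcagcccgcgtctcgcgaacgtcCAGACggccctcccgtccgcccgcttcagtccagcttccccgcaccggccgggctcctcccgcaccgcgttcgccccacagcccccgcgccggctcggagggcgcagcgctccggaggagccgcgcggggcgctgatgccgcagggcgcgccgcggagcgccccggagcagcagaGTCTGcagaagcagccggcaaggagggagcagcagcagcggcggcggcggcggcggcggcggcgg
Fgfrl1, chr5:108693979-108694278, plus strand: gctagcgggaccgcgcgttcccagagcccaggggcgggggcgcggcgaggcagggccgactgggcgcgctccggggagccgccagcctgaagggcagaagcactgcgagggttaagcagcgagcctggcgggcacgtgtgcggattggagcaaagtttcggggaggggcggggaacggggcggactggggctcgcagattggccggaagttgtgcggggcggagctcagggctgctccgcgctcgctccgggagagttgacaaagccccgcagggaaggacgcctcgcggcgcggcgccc
Fgfr3, chr5:33721474-33721773, plus strand: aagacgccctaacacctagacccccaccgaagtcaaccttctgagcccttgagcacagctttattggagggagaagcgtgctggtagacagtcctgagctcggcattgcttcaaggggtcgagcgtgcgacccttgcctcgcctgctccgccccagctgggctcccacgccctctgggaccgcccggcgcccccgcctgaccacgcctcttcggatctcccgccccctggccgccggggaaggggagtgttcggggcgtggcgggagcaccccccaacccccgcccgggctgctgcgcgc
The Fgf9 window held 1 Smad box, the Fgf18 window held 2, and the Fgfrl1 and Fgfr3 windows held 0. Of all 32851 promoter windows of this length in the table, 49.6% held at least 1, so these counts set none of the 4 genes apart. The AP-1 site TGANTCA and the Sox motif AACAANG were searched on both strands as well, had no match in these 4 windows, and occurred in 7.81% and 14.1% of all windows. No match overlapped another, and 8 of the 10 genes had an entry in the table.

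Fgf9 was lower in the mutant in every tissue. Its level was -1.23 on the mutant and 0.78 on the control interzone array, which is 4.01-fold lower. In growth plate it was -5.58 in the mutant and -3.61 in the control (3.92-fold lower), and in interdigital tissue -0.76 in the mutant and 0.85 in the control (3.06-fold lower). All 6 arrays were well above background, and each mutant array lay below the control array of its own tissue. The growth plate signals were dim, at 42 units in the mutant and 89 units in the control before scaling. The growth plate difference, -1.97 on the log2 scale, was -3.08 in the deposited value table, -2.82 with quantile normalization and -1.22 with normexp background correction. Fgf9 has 1 probe, a single spot on each array, at chromosome 14 from 52977509 to 52977568; the files name no build for probe positions.

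Fgf18, which like Fgf9 acts in cartilage and bone growth, was also lower in all 3 mutant tissues, and most in the interzone. Its level was -3.75 on the mutant and 1.21 on the control interzone array, which is 31.1-fold lower. In growth plate it was -5.79 in the mutant and -4.41 in the control (2.61-fold lower), and in interdigital tissue -1.27 in the mutant and -0.16 in the control (2.16-fold lower). The interzone control array was the highest of the 6 and the growth plate mutant array the lowest. With normexp background correction the interzone difference was -2.90 on the log2 scale, against -4.96. The single Fgf18 probe lies on chromosome 11 from 33069451 to 33069510 and was well above background on every array. Its growth plate signals were dim, at 36 units in the mutant and 51 units in the control before scaling.

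Both ligand genes were far lower in growth plate than in the other tissues, in either genotype. Fgf9 was 20.5-fold higher in mutant interzone than in mutant growth plate and 21.0-fold higher in control interzone than in control growth plate. Fgf18 was 4.12-fold higher in mutant interzone than in mutant growth plate and 49.1-fold higher in the control pair. Against interdigital tissue, Fgf9 in growth plate was 28.3-fold lower in mutants and 22.1-fold lower in controls, and Fgf18 was 23.0-fold lower in mutants and 19.0-fold lower in controls. Between interzone and interdigital tissue Fgf9 differed by 1.38-fold in mutants and 1.05-fold in controls, while Fgf18 was 5.58-fold lower in mutant interzone and 2.58-fold higher in control interzone. At least 2-fold in both genotypes, Fgf9 and Fgf18 were higher in interzone than in growth plate (6.2% of 15589 genes) and lower in growth plate than in interdigital tissue (6.1%). By the same count the brightest Fgfr2 probe was lower in interzone than in growth plate (4.82%), where the second Fgfr2 probe was 1.45-fold higher in mutants and 23.5-fold higher in controls. Fgf7 was lower in interzone than in interdigital tissue (3.8%), and the brightest Fgfr3 probe higher in growth plate than in interdigital tissue (3.61%). The third Fgfr3 probe was 1.06-fold higher in growth plate than in interdigital tissue in mutants and 1.30-fold lower in controls. No member was higher in interzone than in interdigital tissue in both genotypes (3.05%).

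**Figure D1:**
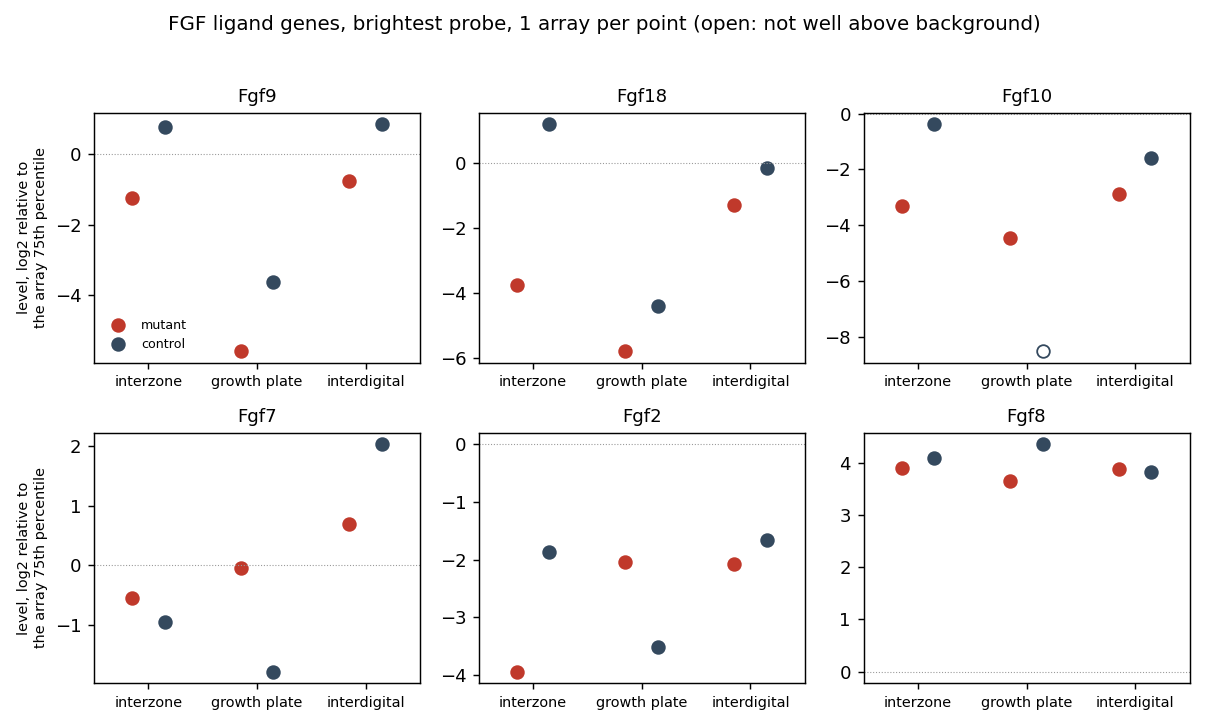
Levels of the 6 FGF ligand genes at their brightest probe (y axis, log2 relative to the array's 75th percentile, a scale of its own for each gene) by tissue, with 1 point per array and the mutant left of the control. The mutant points of Fgf9 and Fgf18 lie below the control point in each tissue, and the open Fgf10 point of the growth plate control array marks a signal not well above background.

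Fgf10, the mesenchymal ligand that signals to limb ectoderm, was lower in 2 mutant tissues and higher in the third. Its probe, with 10 spots per array, had a level of -3.33 on the mutant and -0.37 on the control interzone array (7.76-fold lower), and -2.90 on the mutant and -1.58 on the control interdigital array (2.49-fold lower). In growth plate it was -4.45 in the mutant and not well above background in the control, so it was at least 4.23-fold higher. The control array's dimmest probe that passed the background flag set this bound. On the 5 arrays where it was measured, the SD between the 10 spots was 0.053 to 0.14 on the log2 scale, below each of these differences. That SD covers the reading of 1 array and not the sampling of embryos or cells. With normexp background correction the interzone difference was -1.14 on the log2 scale, against -2.96.

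Fgf7, which like Fgf10 signals from mesenchyme to epithelium, was highest in interdigital tissue in both genotypes. Its levels on the interzone, growth plate and interdigital arrays were -0.54, -0.04 and 0.69 in mutants and -0.95, -1.77 and 2.03 in controls. Interzone was 2.35-fold lower than interdigital tissue in mutants and 7.88-fold lower in controls. The mutant was 1.33-fold higher in interzone, 3.33-fold higher in growth plate and 2.52-fold lower in interdigital tissue. In the deposited table the growth plate difference was 0.62, under 2-fold. The spread over the 3 tissues was narrower on the mutant arrays than on the control arrays.

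Fgf2, a broadly expressed ligand that lacks a classical secretion signal, went in opposite directions in interzone and growth plate. The probe with 10 spots had a level of -3.94 on the mutant and -1.86 on the control interzone array (4.24-fold lower). It was -2.04 on the mutant and -3.51 on the control growth plate array (2.78-fold higher), and -2.08 and -1.66 on the mutant and control interdigital arrays (1.34-fold lower). The second probe went the same way in each tissue, at least 41.3-fold lower, 9.86-fold higher and 2.06-fold lower in the mutant. The SD between the 10 spots lay between 0.054 and 0.11 on the 5 arrays that kept all 10. With normexp background correction the interzone difference was 0.10, on the other side of 0. The growth plate difference was under 2-fold with normexp (0.92), with quantile normalization (0.33) and in the deposited table (0.36).

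Fgf8, the ligand of the apical ectodermal ridge, had high and nearly even readings on every array. Its brightest probe, with 10 spots, had levels of 3.92, 3.66 and 3.88 on the interzone, growth plate and interdigital mutant arrays, and of 4.10, 4.36 and 3.84 on the control arrays. The largest mutant difference was 1.63-fold lower in growth plate. The second probe lay between 0.76 and 1.28 on all 6 arrays, and its mutant differences ran the other way in each tissue, from 1.14-fold lower to 1.29-fold higher. For 6 other ridge genes read on the array, the signal was summed as a multiple of the array's 75th percentile. The sum was 15.02, 12.60 and 4.16 on the interzone, growth plate and interdigital mutant arrays, and 2.83, 5.33 and 4.34 on the control arrays. It was thus higher in mutant interzone and growth plate, and slightly lower in mutant interdigital tissue. Such a sum follows its brightest gene most. Sp6 had the highest level of these genes on every mutant array, at 3.75 in interzone, 3.46 in growth plate and 1.24 in interdigital tissue. Its levels on the control arrays were 0.40, 2.22 and -1.26. Msx2 was lower in mutant interzone (-3.72) than in the control (-1.49), and Dlx5 in mutant interdigital tissue (-0.09 against 1.68). Both were higher in the mutant in their other tissues. Msx2 was also listed as an interdigital mesenchyme gene, and Dlx5 as a perichondrium and osteoblast gene. En1 was well above background only on the interdigital control array. Sp8, a ridge transcription factor gene, was not well above background on the growth plate and interdigital control arrays. Sp6, Fgf17, Msx2 and Dlx5 were measured on all 6. The part of ridge cells in the Fgf8 level was not tested. In the deposited value table the growth plate difference was -1.82.

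Among the receptors, Fgfr1, known from limb mesenchyme, differed by under 2-fold in every tissue at its brightest probe. Its level was 3.64 on the mutant and 3.43 on the control interzone array, 4.03 and 4.29 on the mutant and control growth plate arrays, and 3.54 and 3.49 on the mutant and control interdigital arrays. The folds were 1.15-fold higher, 1.20-fold lower and 1.03-fold higher in the mutant, but the growth plate difference was -1.38 in the deposited value table and 0.39 with quantile normalization. A neighbouring probe with 10 spots, which overlaps the first, gave differences of 0.08, -0.49 and -0.01 on the log2 scale. The other 2 Fgfr1 probes were higher in the mutant in all 3 tissues, by up to 2.48-fold, and that value came from growth plate, where the 4 probes disagreed in direction.

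Fgfr2 gave no single answer, because its 3 probes disagreed. The brightest probe, at 126278278 to 126278337 on chromosome 7, was 2.04-fold lower in mutant interzone and 2.05-fold lower in mutant growth plate, with levels of 1.81 against 2.84 and of 2.96 against 4.0. A probe at 126407714 to 126407773 on the same chromosome was higher in the mutant in interzone (2.28-fold), growth plate (37.0-fold) and interdigital tissue (2.73-fold). Its reading on the growth plate control array, -4.25, lay far below the other 5 arrays, which ran from 0.10 to 1.55. The third probe, with 10 spots, was 1.27-fold lower in mutant interzone, 3.19-fold higher in mutant growth plate and 2.32-fold higher in mutant interdigital tissue. In interdigital tissue all 3 probes were higher in the mutant, the brightest by 1.17-fold. With the mean over all probes, the growth plate difference was 1.95 and the interzone one -0.06. At the brightest probe the growth plate difference was -0.66 with the percentile over detected probes and -0.37 with quantile normalization, and the interzone one -0.80 in the deposited table, all under 2-fold. The summed signal of the 10 epidermis markers, as a multiple of the array's 75th percentile, was 169 to 203 on the mutant arrays and 3.08 to 84.1 on the control arrays. The brightest Fgfr2 probe was lower in mutant interzone and growth plate, and the second was higher in the mutant in all 3 tissues. On the growth plate and interdigital control arrays 8 of the 10 markers were well above background, all but Cdh1 and Trp63, and the part of epidermis in the Fgfr2 values was not tested.

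Fgfr3, the receptor of proliferating chondrocytes, was highest in growth plate in both genotypes. The brightest probe had levels of 0.58, 1.35 and -1.0 on the interzone, growth plate and interdigital mutant arrays, and 0.57, 2.43 and -0.13 on the control arrays. Growth plate was 5.11-fold higher than interdigital tissue in mutants and 5.89-fold higher in controls. In interzone the mutant was 1.01-fold higher, in growth plate 2.12-fold lower and in interdigital tissue 1.84-fold lower. For growth plate this was under 2-fold with the percentile over detected probes (a log2 difference of -0.71), with quantile normalization (-0.49) and with all probes averaged (-0.75). The second probe, which overlaps the first, gave 1.02-fold higher, 1.78-fold lower and 2.54-fold lower. The third probe, dimmer and not overlapping them, was not highest in growth plate in either genotype, with levels of -2.35 in mutant and -2.00 in control growth plate against -1.23 and -1.52 in interzone. On the growth plate pair the lower Fgfr3 level stood beside the lower cartilage markers given above, and their part in it was not tested.

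Fgfrl1 showed the widest mutant difference of the 10 genes. Its level was -4.23 on the mutant and 3.25 on the control interzone array, which is 179-fold lower, and both arrays lay on slide 1. In growth plate it was 0.17 in the mutant and 3.43 in the control (9.58-fold lower), and in interdigital tissue 1.59 in the mutant and 1.71 in the control (1.08-fold lower). With normexp background correction the interzone difference was -4.56 on the log2 scale, against -7.49. The interzone mutant array stood apart, while the other 5 arrays ran from 0.17 to 3.43. The gene has 1 probe, on chromosome 5 from 107887437 to 107887496, with a single spot per array.

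**Figure D2:**
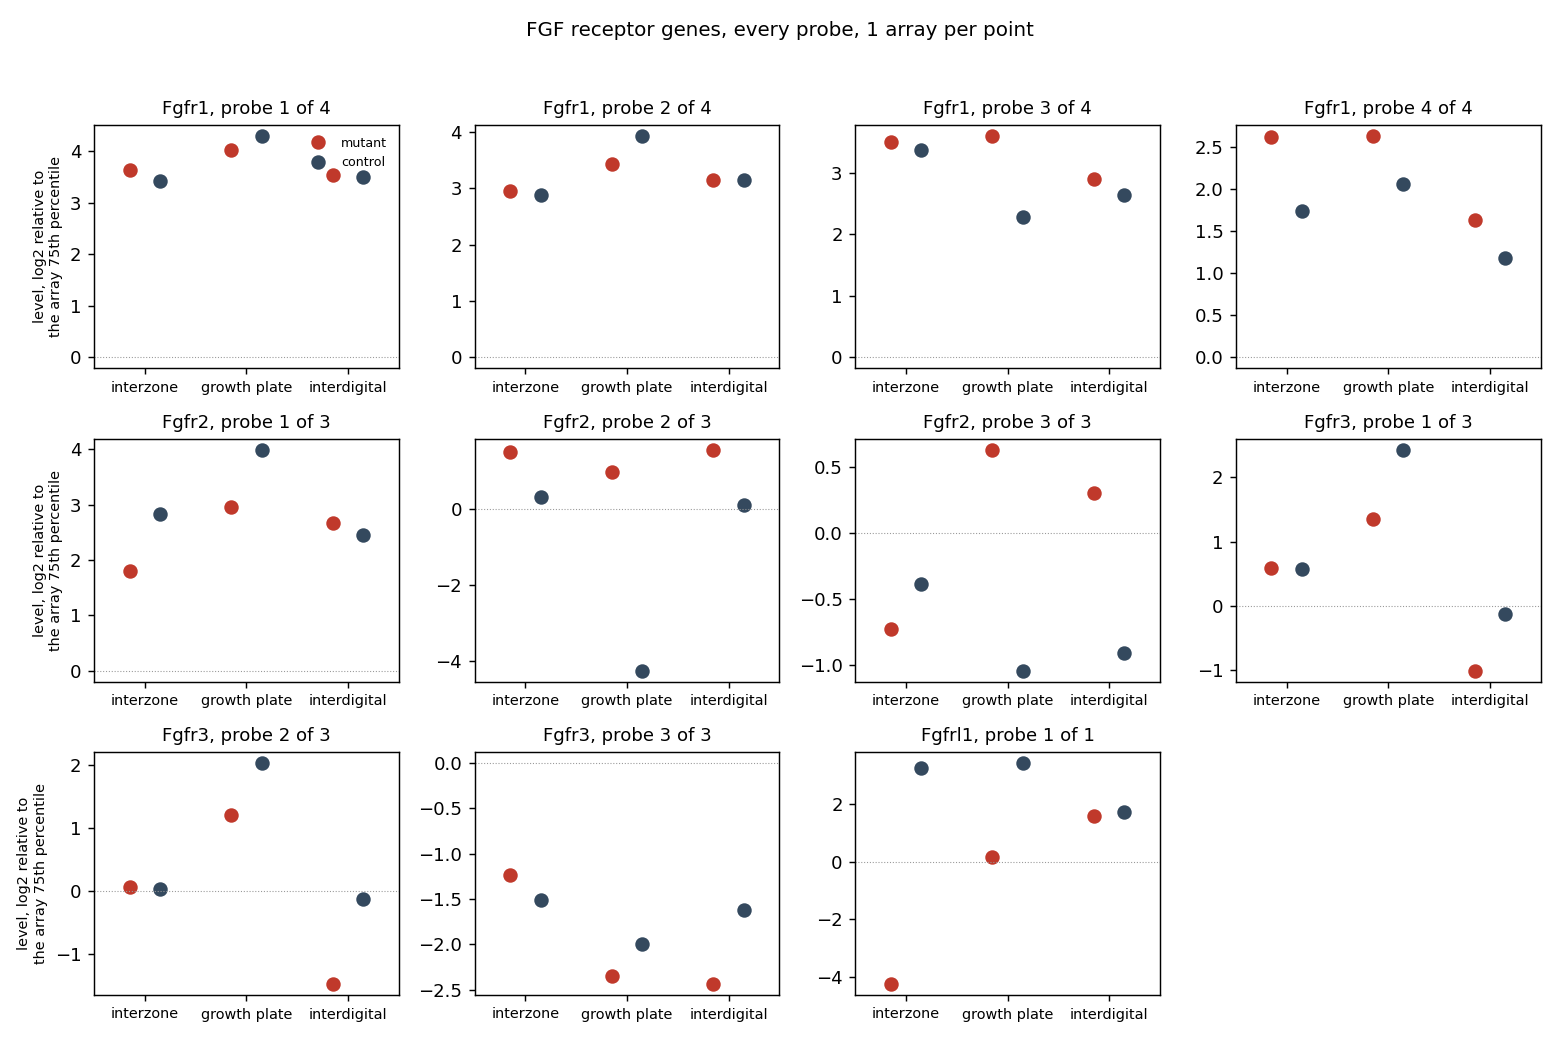
Levels of every probe of Fgfr1, Fgfr2, Fgfr3 and Fgfrl1 (y axis, log2 relative to the array's 75th percentile, a scale of its own for each probe) by tissue, with 1 point per array and the mutant left of the control. The 3 Fgfr2 probes differ in order, 2 of the 3 Fgfr3 probes are highest in growth plate, and the Fgfrl1 point of mutant interzone lies at -4.23.

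Counted over the brightest probes, more of these genes were lower than higher in each mutant tissue, except with all probes averaged, where 3 were higher and 3 lower in growth plate. In interzone 6 of 10 were at least 2-fold lower and 0 higher, against 22.7% of all 16668 measured genes lower and 17.8% higher. In growth plate 5 of the 9 measured on both arrays were lower and 2 higher, against 32.6% and 22.1% of 16165 genes, with Fgf10 as a bound. In interdigital tissue 4 of 10 were lower and 0 higher, against 16% and 10.1% of 17791 genes. The median log2 difference of the measured members was -1.52, -1.04 and -0.65 in the 3 tissues, and that of all measured genes was -0.11, -0.45 and -0.18. Fgf9 and Fgf18 were at least 2-fold lower in all 3 tissues, which held for 1.91% of the 15589 genes well above background on all arrays. For Fgf18 the growth plate difference was -0.94 with normexp background correction, and the interdigital one -0.94 in the deposited value table, both just under 2-fold. Fgfrl1 was lower by any size in all 3, as were 24.5% of those genes, but its interdigital difference was 0.08 with normexp and 0.06 in the deposited table. Of all genes past 2-fold, 43.9% were higher in mutant interzone, 40.4% in mutant growth plate and 38.6% in mutant interdigital tissue. That share was 72.1% (normexp) and 54.3% (deposited table) in interzone, 54.4% (percentile over detected probes) and 16.8% (deposited table) in growth plate, and 49.2% (quantile) and 51.2% (deposited table) in interdigital tissue.

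**Figure D3:**
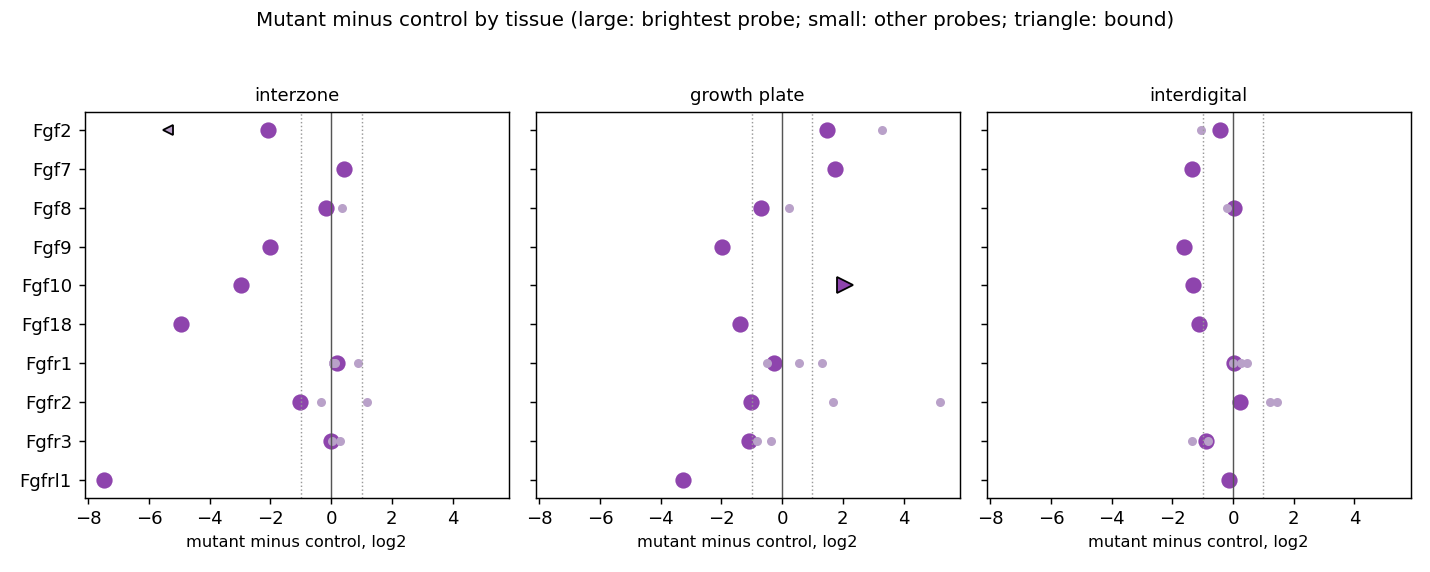
Mutant minus control differences (x axis, log2) of the 10 genes in each tissue, with large points for the brightest probe, small points for the other probes, triangles for bounds and dotted lines at 2-fold. The ligands Fgf9 and Fgf18 lie left of the dotted line in all 3 panels, and the Fgfr2 probes spread to both sides of 0.

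A fit over all 6 arrays estimated the mean mutant difference within tissues, with the 3 tissues taken as repeats. By limma with Benjamini-Hochberg adjustment, 0 of the 35097 probes passed an adjusted p of 0.05 (0%), and 0 of the 19 FGF probes. At an unadjusted limma p under 0.05, 1000 probes were higher and 1059 lower. A share of 0.05 of all probes is expected under that cut where nothing differs. The arrays of a genotype may share embryos, in which case p-values over them are too small. Fgf9 had a difference of -1.86 ± 0.50 (SE, lower in 3 of 3 tissues, limma unadjusted p = 0.021, adjusted p = 0.75), with a 95% interval from -3.26 to -0.46. Fgf18 had -2.49 ± 1.01 (lower in 3 of 3, limma adjusted p = 0.75) and Fgfrl1 -3.62 ± 1.59 (lower in 3 of 3, limma adjusted p = 0.75). Without the interzone pair the estimates were -1.25 for Fgf18 and -1.69 for Fgfrl1. With slide as a term they rested on the interzone pair alone, at -4.96 and -7.49. Fgf7, Fgf8, Fgf10 and the brightest Fgfr1 probe had estimates between -0.28 and 0.27 with intervals that spanned 0, that of Fgf10 from -4.44 to 4.31. The Fgf10 fit used the reading of the growth plate control array that was not well above background, here and in the tissue comparisons.

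**Figure D4:**
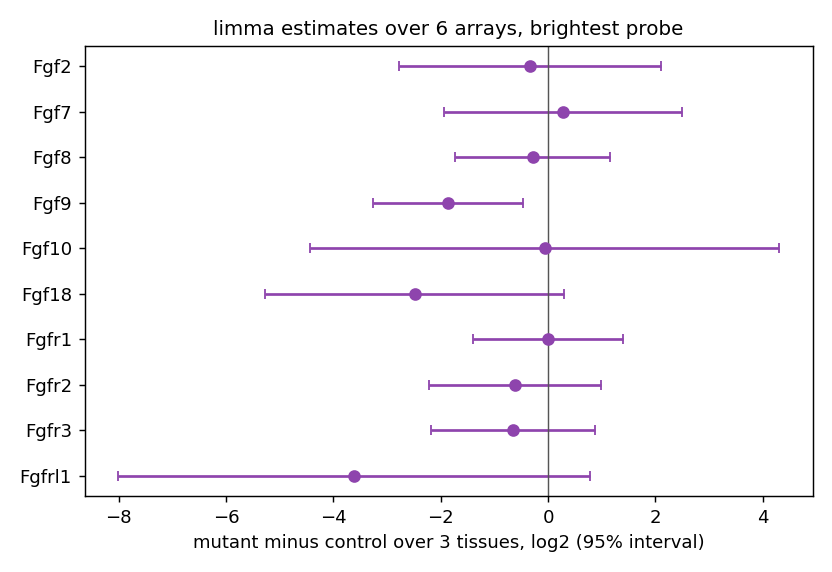
Mutant minus control estimates over the 3 tissues (x axis, log2) for the brightest probe of each gene, with bars for the 95% interval from limma over 6 arrays. The interval of Fgf9 ends at -0.46, and the other 9 intervals include 0.

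The same fit compared tissues, with the genotypes as repeats. No probe of the array passed in any of the 3 tissue comparisons by limma (0% of 35097). For interzone minus growth plate 1501 probes were higher and 873 lower at an unadjusted limma p under 0.05. The counts were 266 and 1020 for interzone minus interdigital, and 345 and 1882 for growth plate minus interdigital. Here too a share of 0.05 of all probes is expected where nothing differs. Fgf9 was 4.37 ± 0.62 higher in interzone than in growth plate (SE, limma unadjusted p = 0.0021, adjusted p = 0.50) and differed by -4.64 ± 0.62 between growth plate and interdigital tissue (limma unadjusted p = 0.0017, adjusted p = 0.59). Fgf18 differed by 3.83 ± 1.23 and -4.39 ± 1.23 in these comparisons (limma adjusted p = 0.70 and 0.72), and Fgf10 by 4.64 ± 1.93 and -4.25 ± 1.93 (limma adjusted p = 0.77 and 0.82). For the brightest Fgfr3 probe, growth plate minus interdigital tissue was 2.46 ± 0.67 (limma adjusted p = 0.72). The third Fgfr3 probe, which does not overlap it, gave -0.15 ± 0.67. For Fgf7 the interzone and the growth plate were below interdigital tissue, at -2.10 ± 0.98 and -2.26 ± 0.98 (limma adjusted p = 1.0 and 0.81).

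Another 5 lists of FGF pathway genes were read on the same pairs, chosen with earlier results of these data known. Their counts stand against the shares of all genes given above, which were 17.8% higher and 22.7% lower in interzone, 22.1% and 32.6% in growth plate, and 10.1% and 16% in interdigital tissue. Among 15 other ligand genes on the array, 3 were at least 2-fold higher and 2 lower of 13 measured in mutant interzone, 3 and 2 of 12 in growth plate, and 1 and 2 of 14 in interdigital tissue. Fgf12, which encodes an intracellular FGF homologue, was 102-fold lower in mutant interzone. The mutant array read -5.61 there, and its lowest level well above background was -6.50. Fgf20, a relative of Fgf9, was 17.8-fold higher and Fgf22 12.5-fold lower in mutant growth plate. The ridge ligand gene Fgf4 is not analysed here.

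Of 8 receptor, coreceptor and binding protein genes, 7 were measured in interzone, where 2 were higher and 2 lower in the mutant. The counts were 1 and 1 of 8 in growth plate, and 2 and 2 of 8 in interdigital tissue. Fgfbp3 was not well above background on the interzone mutant array and stood there as a bound on the lower side. Fgfbp1, an FGF carrier protein gene, was 5.92-fold higher in mutant interzone and 17.1-fold higher in mutant interdigital tissue. Flrt3, a membrane protein gene that interacts with FGF receptors, was 3.64-fold higher in mutant interzone and 43.9-fold higher in mutant growth plate, and its relative Flrt2 was 28.7-fold lower in mutant growth plate. The summed epidermis signal given above was higher on the mutant arrays, and its part in these values was not tested.

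Heparan sulfate is the cofactor that holds FGF on its receptor. Of 18 heparan sulfate genes on the array, 9 of 17 measured in mutant interzone were lower past 2-fold and 1 higher (median -1.05), 6 and 3 of 17 in growth plate (median -0.56), and 3 and 2 of 18 in interdigital tissue (median -0.21). The sulfotransferase gene Hs2st1 was 41.5-fold lower in mutant interzone, where the mutant array read -5.95. It was 91.3-fold higher in mutant growth plate, where the control array read -5.92. Hs6st1, another sulfotransferase gene, was 21.5-fold higher in mutant interdigital tissue, where the control array read -5.90. The glypican gene Gpc6 was 11.4-fold higher in mutant growth plate, where the control array read -5.25.

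Of 16 transducer genes, 4 were higher and 3 lower in mutant interzone, 2 and 5 in growth plate, and 0 and 1 in interdigital tissue. Frs2, the docking protein gene of FGF receptors, was 7.81-fold lower in mutant interzone and 16.2-fold lower in mutant growth plate. The MAP kinase gene Mapk3 was 6.86-fold higher in mutant growth plate, and Map2k1, whose product activates it, was 4.97-fold higher in mutant interzone. Of 11 response and feedback genes, 1 was higher and 2 lower in mutant interzone, 2 and 2 of 9 measured in growth plate, and 1 and 2 in interdigital tissue. The FGF-induced transcription factor gene Etv5 was 50.3-fold lower in mutant interzone and 25.3-fold higher in mutant growth plate, where the control read -5.17. The feedback inhibitor gene Spry2 was 23.5-fold higher in mutant growth plate, where the control array read -5.56. Its relative Spry4 was 12.4-fold lower in mutant interdigital tissue, where the mutant array read -7.35. The list's medians, 0.52, -0.02 and -0.75, lay on either side of those of all genes.

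Among 15588 other genes well above background on all arrays, a few had profiles over the 6 arrays close to those of the FGF genes. Likeness was the root mean square difference of levels after each gene was centred on its own mean, on the log2 scale. Bmper, which encodes a BMP-binding protein, and Gas2 were closest to Fgf9 (0.45 and 0.50, where the SD of Fgf9 itself was 2.32). Gyg and Mbtps2 were closest to Fgf18 (0.60 and 0.66 against 2.47), Zfp647 and Zfhx2 to Fgfrl1 (0.60 and 0.65 against 2.58), and Ndufa8 and Cmtr1 to Fgfr3 (0.11 and 0.25 against 1.08). With 6 arrays and many genes, close profiles of this kind are a description only.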

How the data were processed

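RNA from 6 laser-captured samples was read on 1-colour mouse arrays, 1 per tissue and genotype. The spot intensity was deposited by the authors as scanner output of Agilent Feature Extraction 9.5.1.1, per the file headers. A value table deposited by the authors held the ratio of each spot's processed signal to its array's median, found by setting it against the scanner values, and was used as an alternative. The marks of outlier and background were deposited as flags, per the file headers.

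Control spots and outlier spots were left out. The log2 of the processed signal deposited by the authors was averaged over spots of a probe, and the array's 75th percentile was subtracted. A gene was read at its brightest probe over the 6 arrays, and other probes were reported beside it. A probe was measured where at least 50% of its spots were well above background. With 1 array on each side, a 2-fold difference was the call, with no test. The limma fit (level on tissue and genotype, Benjamini-Hochberg) used 35097 probes well above background on at least 3 arrays. On simulated data it was required to call planted differences only at a small residual SD. At the spread of these arrays only the mean error of the estimates was required to be small. Members were named from the scanner files. Other probes were matched to RefSeq genes by transcript, symbol or older symbol where a match was found. The named genes were all members, plus the 3 genes of each list with the widest measured mutant difference. Single markers (Col2a1, Gdf5, Cdh1, Trp63, Sp8, Sp6, Fgf17, Msx2, Dlx5, En1) were named from their lists after their values were seen. The members and lists were chosen with earlier results of these data known. Alternatives were normexp background, other scalings, the deposited table, all probes averaged, a 4-fold call, slide as a term and each array or pair left out. The number of arrays limits the precision. Descriptions of 5 samples name another experiment, so titles and genotypes set the groups.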

Additional observations from a re-analysis of the deposited data

Results flagged for a closer look

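Fgf2 was lower in mutant interzone (-2.08 on the log2 scale) and higher in mutant growth plate (1.48), so the single pairs went in opposite directions, and the difference between the tissues was not tested. Fgf7 was higher in mutant growth plate (1.74) and lower in mutant interdigital tissue (-1.34), and that difference was not tested either.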

How the results depend on the processing

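No paired analysis was possible because the labels carry no replicate numbers, other than the fit with tissue as a term, which compares mutant with control within tissues. Of the single-gene values and counts tried under the alternatives, 2 gene values changed sign as called differences: Fgf2 in interzone with normexp (0.10) and Fgfr2 in growth plate with all probes averaged (1.95). The 2 genes at least 2-fold higher in mutant growth plate became 3 with all probes averaged, 1 with normexp, 1 with quantile normalization, 0 in the deposited table and 0 at 4-fold. The 5 lower there became 7 in the deposited table, 3 with the percentile over detected probes, 3 with quantile normalization, 3 with all probes averaged and 1 at 4-fold, and the 4 lower in mutant interdigital tissue became 0 at 4-fold. The causes were not tested, apart from the stricter 4-fold call. Scaling moved the median log2 difference of all genes, from -0.11 to 0.32 in interzone with normexp and from -0.45 to -1.56 in growth plate in the deposited table. Over the limma alternatives, leaving out each array or pair included, 0 FGF probes passed, and the mutant minus control estimate ran from -2.24 to -1.42 for Fgf9, from -4.96 to -1.25 for Fgf18 and from -7.49 to -1.69 for Fgfrl1. With 1 array a group, spread between embryos was not measured, and values near background carry the least precision.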
